A study of Mus musculus with 7 samples.

Results

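Small nucleolar RNAs (snoRNAs) and small Cajal body RNAs (scaRNAs) were measured in islets of 7-day-old mice. They were taken as every annotated gene whose mouse symbol begins with Snora, Snord or Scarna followed by a digit, whatever its counts. This gave 150 genes with 147 distinct symbols among 49315 mouse genes: 42 of the H/ACA class (Snora), 99 of the C/D class (Snord) and 9 Cajal body RNAs (Scarna). Counts were found for 78 of them, and 72 had 0 counts in every library.

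The libraries were 4 from βNrf2KO mice, which lack Nrf2 in β-cells by a Cre recombinase, and 3 from Nrf2lox/lox mice, which carry the floxed allele without Cre and served as controls. Each library was a pool of RNA from 5 animals, made from total RNA after depletion of ribosomal RNA. The promoter that drives Cre was not given in the sources used here, and whole islets also hold cells in which Nrf2 was not targeted. βNrf2KO pools carry the numbers 1 to 4 and control pools the numbers 1, 2 and 4.

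Small nucleolar RNAs are guides that pair with other RNAs and bring a modifying enzyme to a chosen base. C/D RNAs are bound by Fbl, Nop56, Nop58 and Snu13 and direct 2′-O-methylation of ribosomal RNA, while H/ACA RNAs are bound by Dkc1, Nop10, Nhp2 and Gar1 and direct pseudouridylation. Cajal body RNAs use the same protein sets but act in the Cajal body on the small nuclear RNAs of the spliceosome. Most are cut from introns of host genes, many of which encode ribosomal proteins or translation factors, and a few, such as Snord118 and Snord13, have genes of their own. The C/D RNAs in introns of Rpl13a (Snord32a, Snord33, Snord34 and Snord35a) are known for a role in oxidative and lipotoxic stress.

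The RNAs on which the results turn are shown with the short boxes that define their class. The sequences are those of GENCODE M21 transcripts (GRCm38), written as DNA on the RNA strand. In C/D RNAs capitals mark a C box (TGATGA) in the first 25 bases and a D box (CTGA) in the last 15. Snord118 holds TGATGA only beyond the first 25 bases, where it is left unmarked. In H/ACA RNAs they mark the ACA nearest the end within the last 7 bases, read as the ACA box. In Snora23 another ACA overlaps the marked one, so the capitals there need not be the box. Scarna2 is shown by its last 100 bases, bases 315 to 414 (chr3:108554338-108554437, minus strand). Its C box lies far from the start of the RNA and is marked although it is outside that window. Scarna6 (chr1:87784556-87784820, plus strand) and Scarna13 (chr12:105031075-105031349, minus strand) are whole, and so are Snord17 (chr2:144265979-144266216, minus strand) and Snora23 (chr7:110046364-110046547, plus strand). Snora28 (chr12:111540941-111541067, plus strand), Snord37 (chr10:81178950-81179013, plus strand), Snord118 (chr11:69073427-69073561, plus strand) and Snord32a (chr7:45127382-45127464, minus strand) were among the most abundant of their classes per length. Snord116l1 (chr7:59894620-59894713, minus strand) stands for a family of near-identical copies.
Scarna2, bases 315 to 414: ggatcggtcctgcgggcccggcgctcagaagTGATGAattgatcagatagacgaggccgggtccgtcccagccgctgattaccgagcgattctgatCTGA
Scarna6: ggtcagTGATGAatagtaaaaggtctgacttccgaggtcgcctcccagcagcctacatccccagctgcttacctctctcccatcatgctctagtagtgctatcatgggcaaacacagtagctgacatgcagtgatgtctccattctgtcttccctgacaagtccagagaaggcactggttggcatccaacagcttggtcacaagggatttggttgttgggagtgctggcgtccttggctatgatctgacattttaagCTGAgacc
Scarna13: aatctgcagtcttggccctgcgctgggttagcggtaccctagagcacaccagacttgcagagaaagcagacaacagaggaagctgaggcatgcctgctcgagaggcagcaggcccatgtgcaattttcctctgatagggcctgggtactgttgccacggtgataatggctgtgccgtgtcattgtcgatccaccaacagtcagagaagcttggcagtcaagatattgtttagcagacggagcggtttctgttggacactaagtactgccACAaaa
Snord17: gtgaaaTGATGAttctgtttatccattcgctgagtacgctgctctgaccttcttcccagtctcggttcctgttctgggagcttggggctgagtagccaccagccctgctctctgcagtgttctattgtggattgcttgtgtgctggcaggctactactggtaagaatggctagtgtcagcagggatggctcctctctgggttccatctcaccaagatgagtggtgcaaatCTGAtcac
Snora23: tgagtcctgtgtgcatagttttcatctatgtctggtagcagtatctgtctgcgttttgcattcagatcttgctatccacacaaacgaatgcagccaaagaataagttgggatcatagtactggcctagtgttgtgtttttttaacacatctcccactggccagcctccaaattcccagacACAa
Snora28: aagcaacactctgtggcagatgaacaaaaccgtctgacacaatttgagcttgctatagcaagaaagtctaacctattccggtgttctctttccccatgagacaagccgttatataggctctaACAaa
Snord37: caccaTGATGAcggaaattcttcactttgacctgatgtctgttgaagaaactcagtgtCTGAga
Snord118: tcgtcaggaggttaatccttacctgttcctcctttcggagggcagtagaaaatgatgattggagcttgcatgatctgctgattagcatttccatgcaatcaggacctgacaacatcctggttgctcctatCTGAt
Snord32a: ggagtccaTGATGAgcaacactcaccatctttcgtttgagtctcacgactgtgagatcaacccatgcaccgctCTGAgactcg
Snord116l1: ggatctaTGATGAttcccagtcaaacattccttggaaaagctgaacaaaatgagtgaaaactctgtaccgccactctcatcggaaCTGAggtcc

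The boxes were read in all 150 RNAs, whose sequences all matched the annotated lengths. Both the C box and the D box stood in these windows in 68 of 99 C/D RNAs (68.7%) and in 0 of 42 H/ACA RNAs. The first bases of coding transcripts, cut to the same length as the median C/D RNA, held both in 0.0274% of cases. An ACA box closed 40 of 42 H/ACA RNAs (95.2%), against 5 of 99 C/D RNAs (5.05%) and 6.34% of coding transcripts cut to the median H/ACA length. On the reverse strand both C/D boxes were found in 0 of 99 C/D RNAs and the ACA box in 3 of 42 H/ACA RNAs. Of the 9 Cajal body RNAs, Scarna10, Scarna17, Scarna6 and Scarna9 had the C/D pair, Scarna13, Scarna3a, Scarna3b and Scarna8 had the ACA box, and Scarna2 had neither within the windows. The Snora and Snord symbols thus went with the box of their class in most members, and the Scarna members were a mixture of both kinds.

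The classes differed in length. C/D RNAs had a median of 84 bases (64 to 238), H/ACA RNAs 132.5 (121 to 205) and Cajal body RNAs 140 (70 to 414). Together the members held 19689 of 148894574 counts, or 0.0132% of the 7 libraries. Cajal body RNAs took 13534 of these counts (68.7%), C/D RNAs 3914 (19.9%) and H/ACA RNAs 2241 (11.4%). Scarna2 alone held 39.7% and Scarna10 23.2%. The 10 members of 150 bases or more held 74.1% of all member counts.

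Whether a member had counts went with where it lies in the annotation. Of 55 members wholly under exons of other genes, 54 had 0 counts. The exception was Snora73a, an RNA of ribosomal RNA processing inside Snhg3, with 12 counts. For an entry of Snora16a and an entry of Snora43, the covering gene was only another entry of the same symbol. Those other entries had 17 and 40 counts. All 14 members covered in part had counts, and so did 63 of the 81 with no base under another exon. The 18 uncovered members at 0 were 17 copies of Snord116 and Snora35. By class, all 36 wholly covered C/D RNAs and 18 of the 19 wholly covered H/ACA RNAs had 0 counts, and no Cajal body RNA was wholly covered.

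**Figure D1:**
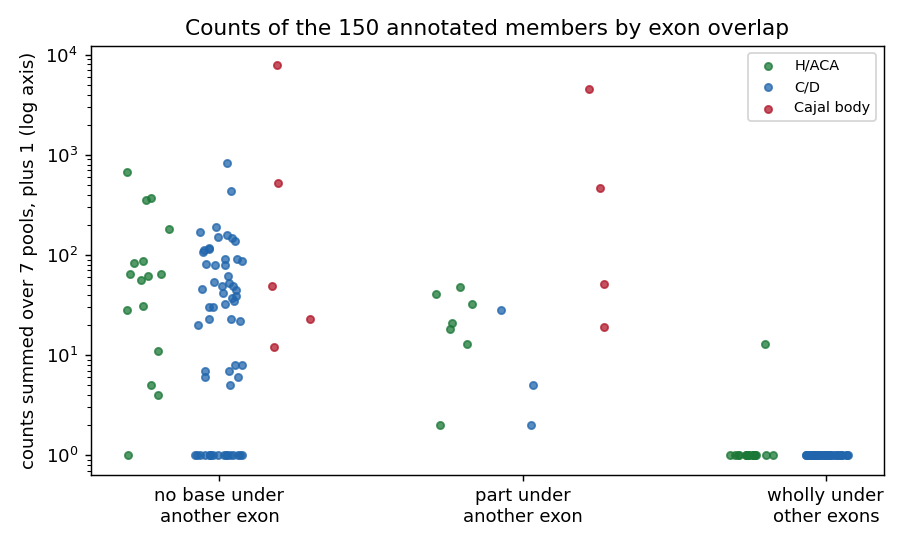
Each point is 1 of the 150 members, with its counts summed over 7 pools plus 1 (log axis) against its overlap with exons of other genes. In the group wholly under other exons, 54 of 55 members lie at 0 counts, and members with no overlap reach 7825 counts.

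The covering exon could lie on the opposite strand. Snord42a and Snord4a, both wholly under Tlcd1 exons on the other strand, had 0 counts, and so did Snora73b under the antisense gene Gm17300. How the counting treated strand, overlapping genes and reads with several matches was not given in the sources used here. A 0 for these members is therefore given as listed, and the RNA's own level is not known from it. The uncovered part can be small in members with many counts: Scarna10 had 42 of its 325 bases outside exons of Ncapd2 and Gm28967, and 4566 counts.

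The imprinted C/D cluster is a case apart. The 17 Snord116 copies, known as brain RNAs whose human cluster is lost in Prader-Willi syndrome, lie in introns of Snhg14 and had 0 counts in all 7 pools. Their 94-base sequences took 4 forms, 14 copies were identical, and the lowest identity to the commonest form was 96.8%, so reads from one copy match others. The host Snhg14 had 1677 counts, and 7.53, 7.34, 10.6 and 10.4 TMM-scaled CPM (counts set to a common effective library size) in βNrf2KO pools 1 to 4, against 10.4, 20.0 and 12.7 in control pools 1, 2 and 4. Snord64 and Snord107 from the same region also had 0 counts and are wholly under exons of their host Gm38393. Snora35, which lies in an intron of the serotonin receptor gene Htr2c, was uncovered and had 0 counts, and Htr2c itself had 0 counts. For a member at 0, as many as 3 counts per pool cannot be told from none, equal to 0.0995 to 0.198 TMM-scaled CPM depending on the pool.

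By counts per length, the highest members were Cajal body RNAs. Short RNAs can be lost in library preparation, so levels of RNAs of unlike length may not compare their abundance. This loss was not tested. The level is given as RPKM, the counts divided by the length of the RNA and by the total counts of the pool, averaged over 7 pools. Scarna2, which in human cells guides modification of the U2 spliceosomal RNA, had 125 RPKM. Scarna10 acts on U5 and carries both kinds of guide domain in human cells. It had 94.5 RPKM over its whole length, 87.1% of which lies under exons of other genes. Below these came Snora28 in an intron of Eif5 with 35.3, Snord17 in Snx5 with 23.5, Snord118 with 21.7, Snora30 with 18.9 and Snord37 in Eef2 with 18.3 RPKM. Snord118 (U8) acts in processing of the large ribosomal subunit RNAs rather than as a methylation guide.

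The medians of the classes were closer than their tops. Among members with counts, the median level was 4.09 RPKM for 46 C/D RNAs, 3.98 for 9 Cajal body RNAs and 1.87 for 23 H/ACA RNAs. The ratio of the H/ACA to the C/D median was 0.458, but 0.828 when CPM was not divided by length and 0.696 among members under no same-strand exon of another gene. Within each class the levels were spread widely, from 0.0600 to 35.3 RPKM in H/ACA RNAs, 0.0662 to 23.5 in C/D RNAs and 0.911 to 125 in Cajal body RNAs. The order of levels inside a class was thus wider than the difference between class medians.

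Among the H/ACA RNAs the 5 highest were Snora28, Snora30, Snora23, Snora78 and Snora20. Snora28 had 30.3, 46.4, 28.3 and 40.4 RPKM in βNrf2KO pools 1 to 4, against 18.6, 20.8 and 62.1 RPKM in control pools 1, 2 and 4. Snora30 had 37.6, 25.3, 10.3 and 19.9 RPKM in βNrf2KO pools, against 14.95, 6.97 and 17.3 RPKM in control pools. In both RNAs the pools of one group lay inside or across the range of the other, so the groups overlapped. Snora23, Snora78 and Snora20 averaged 13.5, 9.46 and 4.41 RPKM over the 7 pools.

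Among the C/D RNAs the 5 highest were Snord17, Snord118, Snord37, Snord32a and Snord104. Snord118 varied most between pools, with 4.48, 13.5, 53.7 and 32.0 RPKM in βNrf2KO pools 1 to 4, against 8.23, 9.46 and 30.4 RPKM in control pools 1, 2 and 4. It was lowest in pool 1 of both groups, and βNrf2KO pools 3 and 4 and control pool 4 stood above the rest. Snord37 had 16.3, 23.7, 16.1 and 27.0 RPKM in βNrf2KO pools, against 25.3, 9.01 and 10.5 RPKM in control pools. Snord104 averaged 15.3 RPKM.

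**Figure D2:**
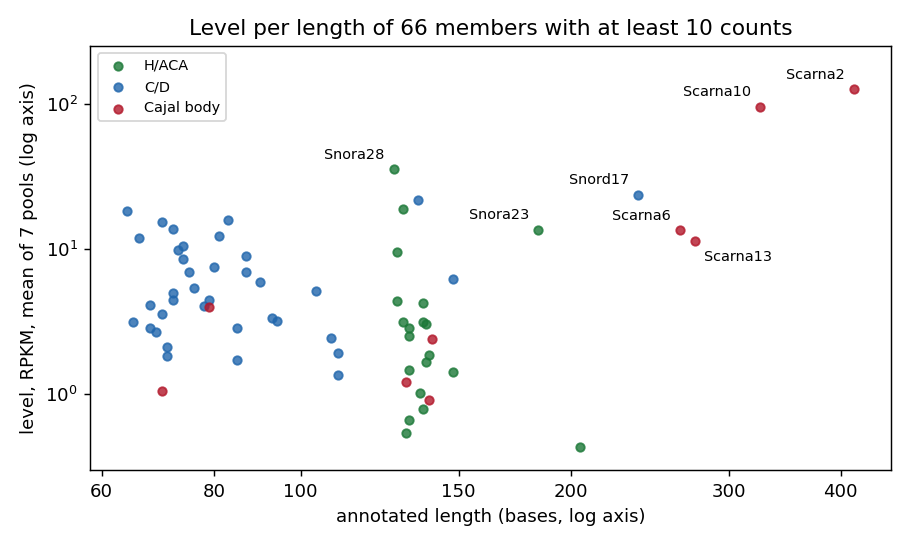
Level in RPKM (mean of 7 pools, log axis) against annotated length in bases (log axis) for the 66 members with at least 10 counts, coloured by class. Scarna2 at 125 RPKM and Scarna10 at 94.5 RPKM are both the longest and the highest.

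Length and level were related weakly, with Scarna2 and Scarna10 kept in. Over the 66 members with at least 10 counts, the correlation of log2 length and log2 RPKM was 0.18 (Pearson) and the rank correlation was -0.098 (Spearman), given as a description since the members share the same libraries. By length, the median level was 4.29 RPKM in members under 80 bases, 3.19 from 80 to under 110, 1.77 from 110 to under 150 and 13.5 at 150 bases or more. The 7 members of the last group with counts were Scarna2, Scarna10, Snord17, Snora23, Scarna6, Scarna13 and Snora73a. The high median of the longest members was thus carried by 4 Cajal body RNAs, Snord17 and Snora23.

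Most members sit in a host gene, and their levels did not simply follow the host. A host was found for 139 of 150 members in 88 genes. By symbol (Rpl or Rps with a number, or Rplp), 32 members lie in 23 ribosomal protein genes. Snora62 in Rpsa is not in this count. Among 56 members with a host and at least 10 counts, the median ratio of the member's level to the host's level, both per length, was 0.374, and 13 had a ratio above 1. The ratio ran from 0.0169 for Snora19, which had 12 counts, in the translation initiation factor gene Eif3a, to 55.0 for Snora30 in the annotated gene Gm42715. The top of this range depends on the choice of host: with the longest spanning gene, Srcap, the ratio of Snora30 was 4.88. Among the most abundant members, Snord37 lay at 0.0630 of the level of Eef2, the translation elongation factor. Scarna10 stood 11.7-fold above Ncapd2 (a condensin subunit), Scarna6 4.01-fold above Atg16l1 (autophagy), and Snord17 2.94-fold above Snx5 (endosomal sorting). Only 42 of the 325 bases of Scarna10 lie outside exons of Ncapd2 and Gm28967, so its ratio is uncertain. Snora28 lay at 0.338 of the level of Eif5, a translation initiation factor. Ribosomal protein genes have many processed copies in the genome, so the counts of such hosts, and the ratios to them, are uncertain. Ratios of a short RNA to a longer host also carry the limit on short RNAs given above.

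The 4 Rpl13a RNAs differed in how far they could be counted. Snord32a had 29, 26, 34 and 26 counts in βNrf2KO pools 1 to 4, against 30, 20 and 25 counts in control pools 1, 2 and 4. Snord34 had 0, 13, 9 and 2 counts in βNrf2KO pools, against 3, 4 and 5 in control pools. Snord35a had 5 counts in all 7 pools together, and Snord33, wholly under exons of Rpl13a and Mir5121, had 0. The one member with enough counts to test, Snord32a, had a log2 fold change of 0.06 ± 0.40 (SE of the edgeR fit over 4 βNrf2KO and 3 control pools; Benjamini-Hochberg adjusted p = 0.964). Its host Rpl13a, measured over the same pools, had a log2 fold change of -0.45 ± 0.24 (edgeR adjusted p = 0.578). For Snord34 and Snord35a a group difference was not detectable at this depth.

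The second question is whether any member differed between βNrf2KO and control islets. Nfe2l2, the gene for Nrf2, had 66.8, 57.8, 67.3 and 58.6 TMM-scaled CPM in βNrf2KO pools, against 86.0, 43.2 and 48.4 in control pools; the deleted exon was not given in the sources used here, so this count over the whole gene does not check the deletion. Cre recombinase had 24, 23, 46 and 73 counts in βNrf2KO pools and 0 in each control pool, as the genotype labels have it. Total counts were 18187382 to 20847474 in βNrf2KO pools and 21603654 to 25373105 in control pools. Mitochondrial transcripts made up 27.7, 22.4, 20.6 and 10.02% of the library in βNrf2KO pools 1 to 4, against 43.0, 51.8 and 14.6% in control pools 1, 2 and 4. Summed over 9 islet hormone and endocrine genes, the level was 41287 to 65188 TMM-scaled CPM in βNrf2KO pools and 22596 to 62482 in control pools, so the labelled tissue had its markers in every pool.

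Of the 150 members, 31 had enough counts to be tested: 19 C/D, 8 H/ACA and 4 Cajal body RNAs. None of these 31 passed an adjusted p of 0.05 in edgeR's quasi-likelihood test, and none of all 19893 tested genes did (0%). DESeq2 also called 0 of the 31 members, and it called 2 of the 19893 genes. At an unadjusted p under 0.05 there were 0 members higher, against 3.23% of all tested genes, and 1 lower, Scarna2, against 5.23%. The pools of the groups did not overlap in 0 members that were higher (3.19% of all tested genes) and in 1 that was lower, again Scarna2 (3.8%). These shares are near those of all genes. With the pool number as a block, the unadjusted count of lower members was 2, Scarna2 and Scarna10. The count of lower members was 4 without control pool 4 and 4 without βNrf2KO pool 1, and 2 without control pool 2, and 1 member was higher without control pool 1, with no adjusted call in any of these fits.

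By class, the direction was mixed except in the Cajal body RNAs. Of 19 tested C/D RNAs 10 had a positive and 9 a negative log2 fold change, with a median of 0.02, or 0.29 without control pool 1. Of 8 H/ACA RNAs 5 were positive and 3 negative, with a median of 0.32, which was not steady in sign: it was -0.34 under a stricter filter on low counts, -0.17 without βNrf2KO pool 1, -0.08 without control pool 2 and -0.03 with library sizes that leave out the mitochondrial genome. All 4 tested Cajal body RNAs had negative values, with a median of -0.91. The median over all 19893 tested genes was -0.01. No test was made of these class medians.

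Scarna2 had the smallest p of the members. It had 46.9, 44.0, 35.9 and 32.0 TMM-scaled CPM in βNrf2KO pools 1 to 4, against 85.4, 81.7 and 53.9 in control pools 1, 2 and 4. Every βNrf2KO pool lay below every control pool. The means were 39.7 ± 6.92 (SD, n = 4) in βNrf2KO and 73.6 ± 17.2 (SD, n = 3) in control, a log2 fold change of -0.89 ± 0.20 with an edgeR adjusted p of 0.571. Leaving out 1 pool at a time gave log2 fold changes of -1.08 to -0.77. Over the alternatives the adjusted p ran from 0.0801, in edgeR with pool numbers as blocks, to 0.9998, in the edgeR fit without control pool 2. Without TMM scaling, Scarna2 had 116, 119, 95.1 and 101 RPKM in βNrf2KO pools 1 to 4. Control pools 1, 2 and 4 had 168, 123 and 155 RPKM, so the groups were only just apart. Scarna2 has no host gene in the annotation and no base under another exon.

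The other 3 tested Cajal body RNAs had lower means in βNrf2KO pools, but their groups overlapped. Scarna10 had 38.5, 35.6, 12.2 and 11.4 TMM-scaled CPM in βNrf2KO pools, against 52.8, 71.3 and 16.6 in control pools, a log2 fold change of -0.94 ± 0.59 (edgeR adjusted p = 0.621). Scarna13 had 4.01, 2.52, 1.59 and 1.76 in βNrf2KO pools, against 5.45, 7.18 and 1.69 in control pools, a log2 fold change of -0.94 ± 0.47 (edgeR adjusted p = 0.571). Scarna6 had 4.38, 2.15, 2.34 and 2.90 in βNrf2KO pools, against 7.03, 4.61 and 2.52 in control pools, a log2 fold change of -0.67 ± 0.38 (edgeR adjusted p = 0.587). Within pools of the same number, Scarna10 was lower in βNrf2KO in all 3 pairs, and with the pair as a block its log2 fold change was -0.67 ± 0.17 (edgeR unadjusted p = 0.0023, adjusted p = 0.245). The adjusted p of Scarna10 over the alternatives ran from 0.245 to 0.9998. In Scarna13 and Scarna6 the βNrf2KO pool was lower in pairs 1 and 2 and higher in pair 4. In all of these RNAs control pool 4 lay far below control pools 1 and 2 on the TMM scale, within the range of the βNrf2KO pools. Without TMM scaling this did not hold for Scarna6, which had 21.7, 10.9 and 11.3 RPKM in control pools 1, 2 and 4. Without control pool 4 the values were -1.35 for Scarna10, -1.36 for Scarna13 and -0.99 for Scarna6, and without control pool 2 they were -0.49 for Scarna10 and -0.51 for Scarna13. Without control pool 1 the value for Scarna6 was -0.26.

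**Figure D3:**
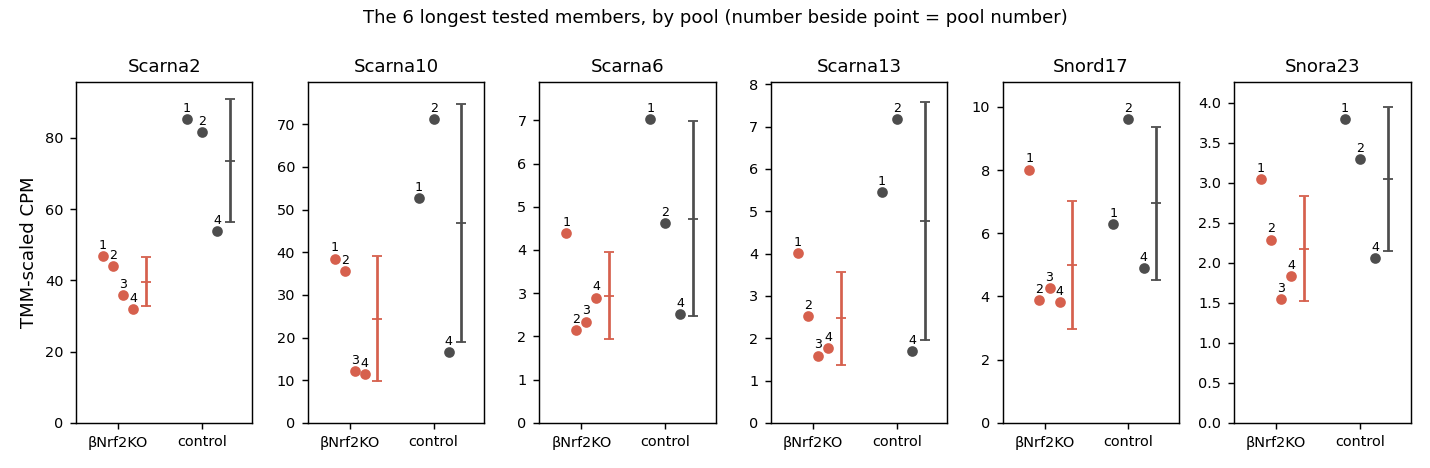
TMM-scaled CPM of the 6 longest tested members in each pool (y axis from 0), βNrf2KO left and control right, with the pool number beside each point and mean ± SD as a bar (n = 4 and n = 3). The groups are apart in Scarna2 and overlap in the other 5.

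The summed Cajal body level is given beside other properties of the pools. It was 94.6, 85.1, 53.2 and 48.9 TMM-scaled CPM in βNrf2KO pools 1 to 4, against 152, 166 and 75.7 in control pools 1, 2 and 4. The 5 mesenchymal marker genes summed to 494, 867, 440 and 522 in βNrf2KO pools, against 1230, 1198 and 508 in control pools, and 7 acinar genes to 91.8, 200, 59.3 and 43.8 in βNrf2KO pools, against 363, 132 and 50.2 in control pools. Both marker sums, and the mitochondrial share above, were higher in control pools 1 and 2 than in control pool 4, as was the Cajal body sum. Among βNrf2KO pools both marker sums were highest in pool 2, whereas the mitochondrial share and the Cajal body sum were highest in pool 1 and lowest in pool 4. Their part in the result was not tested. In pooled bulk RNA, fewer cells of a type and less RNA per cell cannot be told apart. Scarna2 and Scarna10 hold most of this sum, and the other 7 Cajal body RNAs gave 6.35 ± 1.98 TMM-scaled CPM in βNrf2KO (SD, n = 4) and 10.6 ± 4.71 in control (SD, n = 3).

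The C/D and H/ACA sums had similar means in both groups on this scale. C/D RNAs summed to 25.9 ± 2.37 TMM-scaled CPM in βNrf2KO (SD, n = 4) and 26.7 ± 4.05 in control (SD, n = 3), and H/ACA RNAs summed to 14.7 ± 4.29 in βNrf2KO (SD, n = 4) and 15.3 ± 0.908 in control (SD, n = 3). Each of these differences was smaller than the SD between βNrf2KO pools. Between βNrf2KO pools the H/ACA sum ran from 9.88 to 20.0. Without TMM scaling the C/D sums were 29.4 ± 3.76 CPM in βNrf2KO (SD, n = 4) and 22.8 ± 5.08 CPM in control (SD, n = 3), a difference larger than the βNrf2KO SD.

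**Figure D4:**
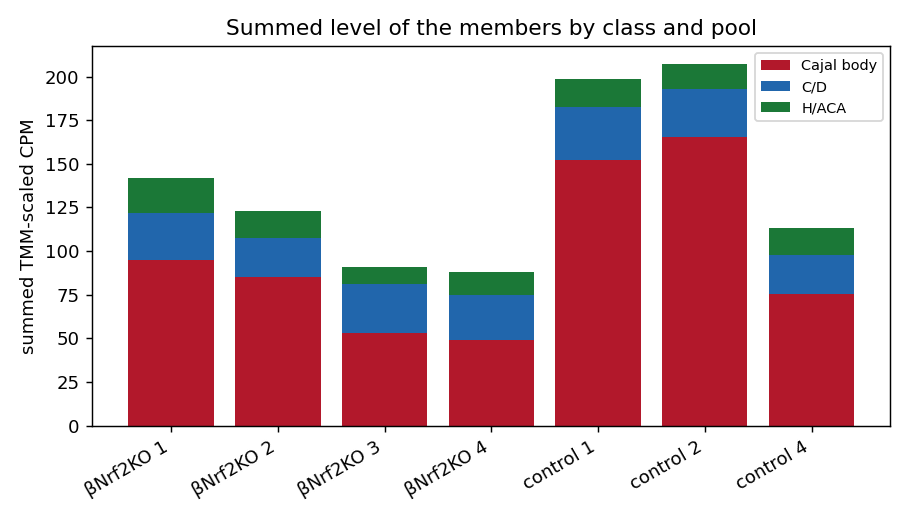
Summed TMM-scaled CPM of Cajal body, C/D and H/ACA RNAs stacked for each pool, βNrf2KO pools left and control pools right. The Cajal body part runs from 48.9 to 94.6 in βNrf2KO and from 75.7 to 166 in control, and the other parts are similar in both.

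The remaining 5 Cajal body RNAs had too few counts to be tested. Scarna17 had 1, 3, 8 and 6 counts in βNrf2KO pools, against 13, 10 and 7 in control pools. Scarna3b had 5, 2, 4 and 3 counts in βNrf2KO pools, against 0, 0 and 4 in control pools, and Scarna8 had 5, 8, 3 and 1 in βNrf2KO pools, against 2, 0 and 3 in control pools. These low counts did not share one direction. Scarna3a had 6, 5, 7 and 9 counts in βNrf2KO pools, against 6, 4 and 13 in control pools, and Scarna9 had 11 counts in all.

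The negative values went with length as well as with class. All 6 tested members of 150 bases or more had negative log2 fold changes, with a median of -0.78. They comprise the 4 Cajal body RNAs, Snord17 with -0.47 ± 0.33 (edgeR adjusted p = 0.639) and Snora23 with -0.48 ± 0.35 (edgeR adjusted p = 0.643). Among other genes of small RNA types with 150 to 450 bases, 40 were positive and 41 negative, with a median of -0.01. The 4 tested scaRNA genes whose Gm symbols kept them out of the members all had negative values. Of these, the longer ones had -0.21 ± 0.19 (Gm22009, 343 bases, 7450 counts) and -1.49 ± 0.68 (Gm25395, 272 bases, 76 counts), and the shorter ones -0.70 ± 0.33 (Gm22442, 144 bases, 596 counts) and -0.96 ± 0.33 (Gm23119, 140 bases, 402 counts). None of them passed the edgeR test after adjustment. Class and length cannot be told apart among the tested members, since every tested Cajal body RNA was longer than every other tested member.

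**Figure D5:**
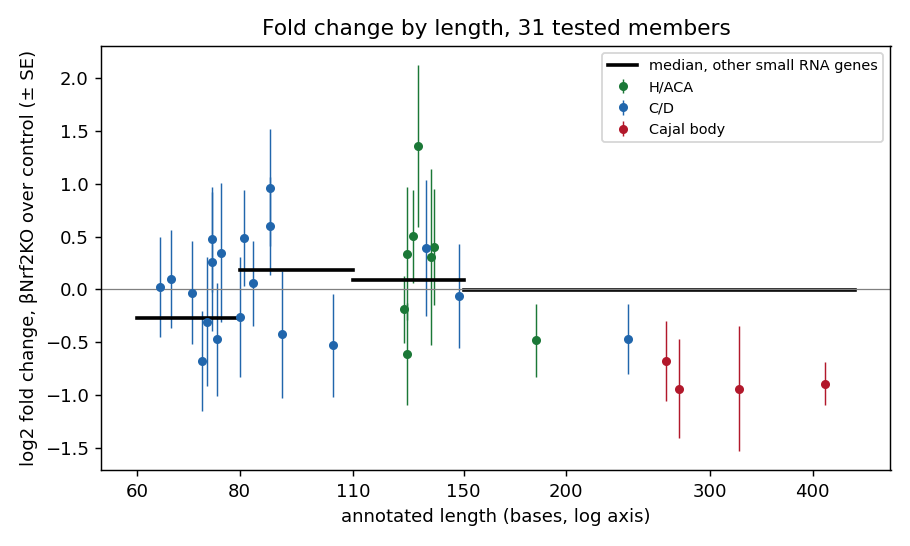
Log2 fold change, βNrf2KO over control, with its SE for the 31 tested members against annotated length (log axis), coloured by class, with black lines for the median of other small RNA genes in each length range. The 6 members of 150 bases or more lie below 0, and the black line for that range lies at -0.01.

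At the other end, the highest log2 fold changes belonged to Snora36b, Snord87 and Snord70, named here after their values were seen. Snora36b had 9, 10, 6 and 12 counts in βNrf2KO pools, against 6, 0 and 4 in control pools, a log2 fold change of 1.36 ± 0.77 (edgeR adjusted p = 0.588). Snord87, in an intron of the long non-coding RNA Snhg6, had 19, 8, 20 and 16 counts in βNrf2KO pools, against 9, 4 and 10 in control pools, a log2 fold change of 0.96 ± 0.55 (edgeR adjusted p = 0.589). Both rest on few counts and their groups overlapped. Snord70 lies in Nop58, the gene of a core C/D protein, and had a log2 fold change of 0.60 ± 0.47 (edgeR adjusted p = 0.660), against -0.09 ± 0.18 for Nop58 itself.

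The fold changes of members were also unlike those of their hosts. Over 25 tested members with a tested host, the correlation of the log2 fold changes was 0.006, and 10 of 25 had the same sign, both given as a description since member and host share the libraries. Ncapd2, host of Scarna10, had a log2 fold change of -0.27 ± 0.15 and Atg16l1, host of Scarna6, one of -0.14 ± 0.20, and neither passed the test. Snx5, Ipo7 and Eif5, hosts of Snord17, Snora23 and Snora28, had 0.06, 0.11 and 0.16.

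The proteins of these particles showed no call either. The list of 43 proteins took in snoRNA particles, their assembly and RNA processing, and ribosomal RNA transcription. Of these, 42 were found and tested, and 0 passed the edgeR test. There were 18 positive and 24 negative values, with a median of -0.02. The methyltransferase Fbl had -0.17 ± 0.19, Nop58 -0.09 ± 0.18, Nop56 0.02 ± 0.20 and Snu13 -0.01 ± 0.22. In the H/ACA set the pseudouridine synthase Dkc1 had 0.06 ± 0.22, Nop10 0.20 ± 0.23, Gar1 0.08 ± 0.22 and Nhp2 -0.03 ± 0.30. All 8 core proteins lay within 1 SE of 0.

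Among the listed proteins outside the core sets, the smallest p belonged to Nolc1, a chaperone of both particle classes in the nucleolus and the Cajal body. It had 32.3, 29.1, 25.3 and 17.9 TMM-scaled CPM in βNrf2KO pools, against 41.0, 57.5 and 24.5 in control pools, a log2 fold change of -0.65 ± 0.28 (edgeR adjusted p = 0.571). Control pool 4 again lay among the βNrf2KO pools, and without control pool 2 the value was -0.32. Ubtf, which drives ribosomal RNA transcription, had -0.32 ± 0.16, and the assembly factors Znhit6 and Ruvbl2 had 0.36 ± 0.23 and 0.32 ± 0.23. Terc, the telomerase RNA, which ends in an H/ACA domain, had 0.12 ± 0.73.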

How the data were processed

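The deposited files hold raw counts of reads per gene, one file for each of 7 pools. The tools listed in the submitters' processing notes are Trimmomatic 0.36 for trimming, STAR 2.5.2b for alignment, featureCounts (Subread 1.5.2) for counting and bcl2fastq 2.20. How the counting treated strand, overlapping genes and reads with several matches is not stated. GRCm39 is the build named there, whereas the count files print GRCm38 positions; GRCm38 is therefore used here, with GENCODE M21 for sequences and the files' own exons for overlap and hosts. A host is the smallest gene of at least 2 exons and over 300 exon bases that spans the member on its strand. A combined table of the same counts was not used, and library sizes exclude Cre.

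Group differences were tested with edgeR 4.0.16 in R 4.3.3: TMM scaling, filterByExpr, the robust quasi-likelihood test (two-sided) and Benjamini-Hochberg adjustment over 19893 genes, with a threshold of 0.05. Log2 fold changes are βNrf2KO over control. Nothing in the labels says how the pools relate beyond their numbers, and p-values measure the spread between pools, not animals. The common biological coefficient of variation was 0.280. The fit was also run on simulated counts with the same dispersion for all genes, so that run does not measure its power for the members. Pools with the same number deviated together (r = 0.376, 0.229 and 0.323 for numbers 1, 2 and 4). So did βNrf2KO pool 3 and control pool 4 (r = 0.241), while the other pools of unlike number had r of -0.353 to -0.0437. These correlations therefore do not settle the pairing. The numbers were taken as possible pairs, and a fit with the number as a block was run beside the main one. Floors of 3 counts reflect counting error alone, because without molecular identifiers several reads can come from 1 molecule.

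Alternatives were RLE scaling, library sizes without the mitochondrial genome, no filter, a filter of 1 CPM in 3 pools, DESeq2 1.42.0, limma-voom 3.58.1, a threshold of 0.1 and each pool left out. Named members were the 5 highest per length in each class and the Rpl13a RNAs. Tested members with the smallest p and groups that do not overlap were also named. So were every Scarna member and the hosts of all these. The core proteins were named too, with the 2 other listed proteins per direction that had the smallest p. The members and lists were chosen with earlier results of these data known.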

Additional observations from a re-analysis of the deposited data

Results flagged for a closer look

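One pool stood apart from the other 3 βNrf2KO pools in 2 of the 38 named groups of pools that could be checked, a share near the 1 in 20 that chance gives. Snord17 had 8.01 TMM-scaled CPM in βNrf2KO pool 1, and the other βNrf2KO pools had 3.82 to 4.26. Ruvbl2 had 25.7 TMM-scaled CPM in βNrf2KO pool 3, and the other βNrf2KO pools had 16.7 to 17.5. The cause was not tested.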

How the results depend on the processing

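No member passed an adjusted p of 0.05 under any alternative tried, and none did at a threshold of 0.1 in the unblocked one. In the fit that pairs pools by a block for their number, the count of members with an unadjusted p under 0.05 that were lower was 2, and so it was with no filter. Shares of all tested genes at this unadjusted threshold are not given for the alternatives, including the fits that leave out a pool. The unadjusted counts of members are therefore not read as a result about the members. At 0.05 the block changed no call on a member, and over all genes it called 14 where the unblocked fit called 0. At 0.1 Scarna2 passed under the block (edgeR adjusted p = 0.0801). Under the block the log2 fold change was -0.43 for Snord118, -0.017 for Snord32a and 0.087 for Snord104, and under limma-voom it was -0.044 for Nop56 and 0.018 for Snu13, each with its sign turned. A stricter filter, 1 CPM or more in 3 or more pools, gave an H/ACA median of -0.34. Without the mitochondrial genome in the totals, the mean sums in βNrf2KO and control pools were 20.9 and 21.0 CPM for H/ACA, 36.8 and 36.7 for C/D, and 100.5 and 179 for Cajal body RNAs. With the mitochondrial genome in the totals, the Cajal body sums in βNrf2KO and control pools were 78.7 and 105.8 CPM, and 7.12 and 8.46 CPM without Scarna2 and Scarna10, an alternative chosen after seeing the data; on totals without the mitochondrial genome the sums without these RNAs were 9.05 and 14.5 CPM. The ratio of H/ACA to C/D medians was 0.828 without division by length and 0.696 under no same-strand exon. Over the fits that each left out a pool, the unadjusted counts ran from 0 to 1 for higher and from 1 to 4 for lower members, the H/ACA median from -0.17 to 0.56 and the C/D median from -0.11 to 0.29. In those fits these log2 fold changes changed sign: Snora28 (-0.43 to 0.19), Snora20 (-0.052 to 0.78), Snord118 (-0.31 to 0.84), Snord37 (-0.33 to 0.67), Snord32a (-0.19 to 0.32), Snord104 (-0.39 to 0.43), Fbl (-0.33 to 0.026), Nop56 (-0.10 to 0.22), Nop58 (-0.24 to 0.0024), Snu13 (-0.22 to 0.21), Dkc1 (-0.018 to 0.13), Nhp2 (-0.14 to 0.081), Gar1 (-0.017 to 0.21), Ipo7 (-0.026 to 0.33) and Gm42715 (-0.16 to 0.11). The causes were not tested. Of 489 values for 35 named genes, 456 kept their sign and their side of the threshold and 33 reversed. Few counts limit the precision: 31 of the 78 members with counts could be tested.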
